A study of Homo sapiens with 8 samples.

Results

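The forkhead (FOX) genes other than FOXO1 were followed in the H3K27ac peak lists of 3 WT and 3 CREBBP-KO libraries of HCEC-1CT, a human colonic epithelial cell line. Protein-coding genes of GENCODE release 44 were taken when their symbol was FOX, a letter from A to S and a number, which gave 51 of 20033 genes. One of them, FOXL2NB, is a neighbour of FOXL2 and not a forkhead gene. FOXO3B is a copy of FOXO3 sequence, and FOXD4 and the FOXD4L genes are near-identical to each other, so that peaks at these genes are uncertain. With 20 kb added on both sides, the genes formed 48 separate windows of 4.65 Mb in all, which held 327 of the 143733 intervals obtained when overlapping peaks of the 6 lists were merged.

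Forkhead factors bind DNA through a winged-helix domain, and several of them can open compacted chromatin ahead of other factors. The FOXA factors act in this way in gut endoderm, FOXF1 and FOXL1 are made by the mesenchyme beneath the gut lining, the FOXO factors are held out of the nucleus by insulin and AKT signalling, and FOXM1 drives genes of mitosis. H3K27ac marks active promoters and enhancers, and CREBBP, also called CBP, is one of the acetyltransferases that place it.

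HCEC-1CT cells were immortalized with CDK4 and telomerase. The cells of both genotypes had received a doxycycline-inducible Cas9 vector, and CREBBP-KO cells were made from them with guide RNAs against CREBBP. The methods speak of monoclonal lines and also of several clones combined per target, with a matched pool of parental subclones as WT, so that a clone's own history may be part of either group. Each library came from its own population of growing cells. The p-values measure the spread between these populations of 1 line, and the input library of each genotype was not analysed here.

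Between 86163 and 93567 peaks made up a WT list, and between 99008 and 111697 a CREBBP-KO list. Height is the authors' fold of a peak over local background, and its percentile is its place among all peaks of its own list. In longer lists a peak of a given fold stands higher: a fold of 5 corresponded to percentiles between 57.0 and 58.4 for WT, and between 60.6 and 63.5 for CREBBP-KO. The lists hold no reads, so the depth behind a peak is unknown. Of 14 gut epithelial marker genes, 9 had no promoter peak in any list, among them CDH1, KRT20, CDX2 and VIL1, while 4 had one in all 6 lists, among them EPCAM, KRT8 and MUC2. The EPCAM peak was near the bottom of the WT lists, at percentiles 0.17, 7.27 and 8.36, and stood at 46.14, 35.55 and 19.68 in CREBBP-KO. All 10 mesenchymal markers, such as VIM, COL1A1 and TWIST1, had one in all 6 lists. None of the 3 blood markers and none of the 3 endothelial markers had one in all 6, though PECAM1, an endothelial marker, had one in the 3 CREBBP-KO lists. Of the 3 neural markers 1, TUBB3, had one in all 6 lists. These are marks on chromatin and not RNA, and what they mean for the identity of the line was not tested.

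H3K27ac divided the forkhead genes. A promoter peak, one that overlapped the 1 kb on either side of a protein-coding start, was present in all 6 lists at 24 of the 51 genes (47.1%) and in no list at 27 (52.9%). No forkhead gene had a promoter peak in only 1 to 5 lists, a state that 1192 protein-coding genes of the genome showed. Over all protein-coding genes, 60.6% had a promoter peak in all 6 lists and 33.4% in none. The division depends on the definition: with a summit required within 1 kb, 16 genes had a promoter peak in all lists and 28 in none, with a fold of at least 5 the counts were 19 and 27, and with 2 kb around the start 25 and 24.

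No peak of any list fell in the gene or within 20 kb of it at 17 of the 51 genes (33.3%), against 14.0% of protein-coding genes. The silent genes were FOXA2, an endoderm pioneer factor; FOXI1, FOXI2 and FOXI3, of ionocytes and the ear and branchial region; FOXN4, of the retina; FOXL2, of the ovary, with its neighbour FOXL2NB; FOXB2, FOXL3, FOXO6 and FOXR2; and FOXD4, FOXD4L1, FOXD4L3, FOXD4L4, FOXD4L5 and FOXD4L6. For the FOXD4 group an empty window may also come from reads that match several copies, which was not tested. With windows of 50 kb, 10 genes stayed empty, FOXA2 among them.

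Another 10 genes had no promoter peak and at least 1 peak nearby. At FOXH1, FOXJ1 and FOXR1 all of these peaks lay at promoters of other genes, and at FOXN1 and FOXP3 those present in all 6 lists did. FOXB1, FOXE1, FOXE3, FOXQ1 and FOXS1 had peaks between protein-coding genes. At FOXE1, a thyroid and palate factor, an interval 23.9 kb downstream of its start stood at percentiles 96.5, 96.9 and 93.4 in WT and 97.0, 97.3 and 94.2 in CREBBP-KO. FOXQ1, a factor of gut epithelium and of epithelial-mesenchymal change, had a lower interval 13.3 kb downstream, at 59.5, 66.3 and 56.3 in WT and 37.7, 59.9 and 48.3 in CREBBP-KO. Both pairs of groups overlapped.

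Among the 24 marked promoters, the median over genes of the mean percentile was 88.9, close to the 89.2 of all protein-coding genes with a promoter peak in all lists. The mean ran from 56.4 at FOXC1 to 97.7 at FOXD1. The 15 highest were, in this order, FOXD1, FOXN2, FOXL1, FOXO3, FOXM1, FOXN3, FOXF1, FOXK1, FOXP1, FOXJ2, FOXJ3, FOXK2, FOXA3, FOXD2 and FOXO3B. Over the 6 libraries, the ranges of the first 5 overlapped.

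**Figure D1:**
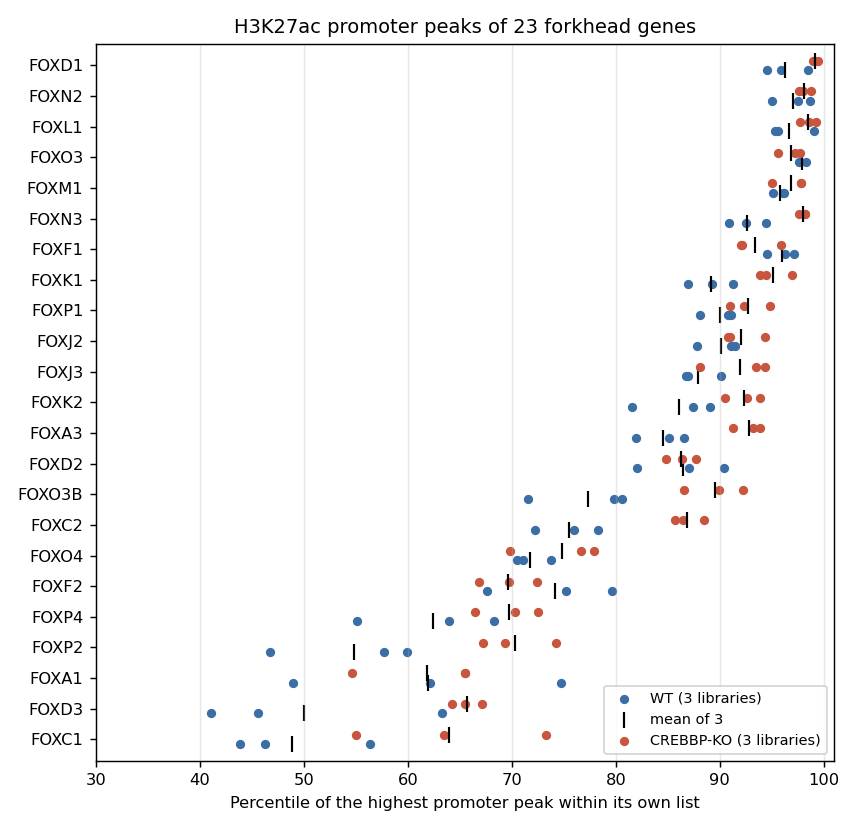
Percentile, within its own list, of the highest promoter peak (horizontal axis) at 23 of the 24 forkhead genes with a promoter peak in all 6 lists. Dots are single libraries and black bars the mean of 3; at FOXD1, FOXN3, FOXK1, FOXK2, FOXA3, FOXO3B, FOXC2, FOXP2 and FOXD3 all 3 CREBBP-KO dots lie to the right of all 3 WT dots.

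At 9 of the 24 promoters (37.5%) all 3 CREBBP-KO percentiles stood above all 3 WT percentiles, and at 0 they stood below. Over all protein-coding promoters these shares were 45.0% and 7.71%, so the forkhead count follows that of the genome and is no result about these genes. For each of the 9 the two-sided exact permutation test gave p = 0.1, the smallest that 3 libraries against 3 allow. With lists of equal length 8 promoters stood above and 1, FOXO3, below, and FOXD3 overlapped. The values of the single genes follow by role.

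None of the FOXA factors, which open chromatin in endoderm, was among the 12 members with the highest promoter peaks. The highest peak at the promoter of FOXA1 stood at 74.7, 48.9 and 62.1 in WT and at 54.6, 65.5 and 65.5 in CREBBP-KO, with overlap, and its interval is shared with a start of TTC6. FOXA2 was silent. The peak counted for FOXA3 stood at 85.1, 86.5 and 81.9 in WT and at 93.2, 91.2 and 93.9 in CREBBP-KO, all 3 above WT. It had its summit 1075 bases before the FOXA3 start, in an intron of SYMPK and at a SYMPK promoter, so that the 2 genes cannot be told apart here.

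Of the 9 forkhead genes of mesenchyme and of epithelial-mesenchymal change, 7 had a promoter peak in all lists. FOXD1 (ENSG00000251493.5, chr5:73444827-73448777, minus strand), a factor of kidney stroma, had the highest mean percentile of all members, with 95.9, 94.5 and 98.5 in WT and 99.2, 99.4 and 98.9 in CREBBP-KO. The corresponding folds were 17.2, 15.1 and 21.4 against 25.9, 29.3 and 26.6. Its promoter interval ranked higher in CREBBP-KO by 0.61 (standard error 0.18, limma, adjusted p = 0.0119). The unit is 1 normal score, the rank of an interval's fold among the tested intervals of its library turned into a standard normal value.

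FOXF1, FOXC2 and FOXL1 lie side by side on chromosome 16. The FOXF1 start, of a factor needed for gut mesenchyme, lay in an interval of 25.4 kb, the second widest of the forkhead windows. It stood at 94.5, 97.1 and 96.2 in WT and 95.9, 92.1 and 92.1 in CREBBP-KO, with overlap and without a call (shift -0.40, standard error 0.17, limma, adjusted p = 0.0698). FOXL1, which marks fibroblasts next to gut crypts, stood at 95.6, 99.0 and 95.3 in WT and 97.7, 98.6 and 99.2 in CREBBP-KO, again with overlap. FOXC2, a factor of lymph vessels and of epithelial-mesenchymal change, was lower in all lists, at 72.2, 76.0 and 78.3 in WT and 86.5, 85.7 and 88.5 in CREBBP-KO. Here the groups did not overlap, and the interval was called higher (shift 0.58, standard error 0.21, limma, adjusted p = 0.0349).

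The neighbours on chromosome 6 differed from each other. FOXF2, a factor of gut mesenchyme, stood at 67.6, 75.2 and 79.6 in WT and 69.7, 66.8 and 72.4 in CREBBP-KO. FOXC1, a factor of eye and vessel mesenchyme, stood at 46.3, 43.9 and 56.3 in WT and 55.0, 73.3 and 63.5 in CREBBP-KO. Both overlapped between genotypes. Over the coding exon of FOXC1, with its summit 2064 bases from the start, the interval chr6:1611360-1613190 stood at 40.9, 56.5 and 42.9 in WT and 70.3, 67.5 and 69.2 in CREBBP-KO, and was called higher (shift 0.76, standard error 0.29, limma, adjusted p = 0.0429). It entered the test through the folds of CREBBP-KO alone, the group where it is high.

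FOXD2 stood at 87.0, 90.4 and 82.1 in WT and at 87.7, 86.3 and 84.8 in CREBBP-KO, with overlap. An interval between FOXE3 and FOXD2, chr1:47430957-47433833, was called higher, with 72.3, 67.8 and 58.5 in WT and 82.0, 86.0 and 82.8 in CREBBP-KO (shift 0.90, standard error 0.25, limma, adjusted p = 0.00778). FOXS1, of vessel wall cells, had no promoter peak.

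Of the FOXO genes other than FOXO1, FOXO3 (ENSG00000118689.15, chr6:108559835-108684774, plus strand) carried the widest H3K27ac of the family, with an interval of 29.9 kb over its start, the widest of all 327, and another 3 of the 6 widest within the gene. Over all its starts, the highest promoter peak of FOXO3 stood at 97.7, 98.3 and 97.6 in WT and 97.2, 97.7 and 95.6 in CREBBP-KO, with overlap. The interval of 29.9 kb had a shift of 0.35 (standard error 0.17, limma, adjusted p = 0.114). Another promoter interval of FOXO3, chr6:108642439-108663525, had a shift of -0.32 (standard error 0.17, limma, adjusted p = 0.136). Neither was called. In the gene, chr6:108669432-108678559 was called higher, from 44.3, 54.3 and 61.4 in WT to 73.2, 75.8 and 70.7 in CREBBP-KO (shift 0.81, standard error 0.30, limma, adjusted p = 0.0349). This interval also entered the test through the folds of CREBBP-KO alone. FOXO4 stood at 71.1, 70.4 and 73.8 in WT and at 77.9, 76.6 and 69.8 in CREBBP-KO, and FOXO6 was silent. The promoter of the copy FOXO3B was called higher, with 79.8, 71.5 and 80.6 in WT and 92.2, 89.9 and 86.6 in CREBBP-KO (shift 0.69, standard error 0.21, limma, adjusted p = 0.0129).

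All 7 genes of the cell-cycle and widely used group had a promoter peak in all lists, at mean percentiles of 89.2 to 97.6. FOXM1, the mitotic activator, shares its promoter interval with RHNO1 and stood at 95.1, 96.1 and 96.2 in WT and 95.0, 97.8 and 97.8 in CREBBP-KO, with overlap. FOXN2, of which less is known, stood at 97.5, 95.0 and 98.7 in WT and 97.6, 98.8 and 98.0 in CREBBP-KO. FOXJ2 (87.8, 91.4 and 91.1 in WT and 94.3, 90.7 and 91.0 in CREBBP-KO) and FOXJ3 (86.9, 86.8 and 90.1 in WT and 88.1, 94.3 and 93.5 in CREBBP-KO) also overlapped between genotypes.

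FOXN3, a checkpoint repressor, FOXK1 and FOXK2, which repress autophagy genes, were the members of this group without overlap. FOXN3 stood at 90.9, 94.4 and 92.5 in WT and 98.2, 98.2 and 97.6 in CREBBP-KO (shift 0.67, standard error 0.16, limma, adjusted p = 0.00265), a call that was lost with ranks from -log10 p. The shift and call are those of chr14:89414491-89418368, at a start inside the gene. The 5′ end of FOXN3 lies in a separate interval, chr14:89616874-89619724. The highest FOXK1 promoter peak stood at 91.2, 86.9 and 89.3 in WT and 97.0, 93.9 and 94.4 in CREBBP-KO, and the interval at its start was called higher (shift 0.69, standard error 0.18, limma, adjusted p = 0.00438), again not by -log10 p. An interval 16.4 kb before the FOXK1 start, chr7:4664810-4666747, was also called higher, from 50.8, 56.4 and 61.7 in WT to 81.9, 79.4 and 78.3 in CREBBP-KO (shift 1.17, standard error 0.27, limma, adjusted p = 0.00215). It entered the test through the folds of CREBBP-KO alone, and without the fold filter its shift was 0.79.

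At FOXK2 (ENSG00000141568.21, chr17:82519713-82644662, plus strand) an intronic interval was called lower and the promoter had no call. The promoter stood at 89.1, 81.6 and 87.4 in WT and at 93.9, 92.6 and 90.5 in CREBBP-KO, all 3 above WT, and its interval was not called (shift 0.38, standard error 0.18, limma, adjusted p = 0.102). By -log10 p the difference of the promoter percentiles was 2.15 in place of 6.31. In an intron 16.9 kb into the gene, chr17:82534080-82539901 stood at 97.8, 94.7 and 96.0 in WT and at 87.7, 88.4 and 88.6 in CREBBP-KO, all 3 below WT. The folds there were 20.1, 15.3 and 17.4 in WT and 11.0, 12.2 and 12.8 in CREBBP-KO. This was the downward call with the smallest adjusted p among the members (shift -0.92, standard error 0.17, limma, adjusted p = 0.000302). FOXN2 had an intronic interval that was called lower, chr2:48349797-48358026, at 93.8, 92.3 and 88.0 in WT and 86.0, 83.3 and 85.4 in CREBBP-KO (shift -0.65, standard error 0.18, limma, adjusted p = 0.00751).

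Of the FOXP genes, FOXP3, of regulatory T cells, had no promoter peak. FOXP2, a factor of speech and lung development, stood at 46.8, 59.9 and 57.7 in WT and 74.3, 67.3 and 69.3 in CREBBP-KO, without overlap. FOXP4, a factor of lung and gut, stood at 68.2, 64.0 and 55.1 in WT and 72.5, 70.3 and 66.5 in CREBBP-KO, with overlap. By its highest promoter peak FOXP1 also overlapped, with 90.8, 91.1 and 88.1 in WT and 92.4, 94.8 and 91.0 in CREBBP-KO. This value hides a difference among the starts of FOXP1, which is described next. Among the remaining genes, FOXD3, a neural crest factor, stood at 45.6, 41.1 and 63.3 in WT and 64.3, 67.1 and 65.5 in CREBBP-KO.

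FOXP1 (ENSG00000114861.24, chr3:70954693-71583978, minus strand), a repressor used in B cells, heart and stem cells, spans 629.3 kb and held 73 of the 327 intervals and 18.1% to 23.0% of the peaks in the forkhead windows. The annotation gives it 33 distinct protein-coding starts, and ENSG00000285708 runs through the same region. At the interval of its canonical start, chr3:71581414-71585339, the peak stood at 41.6, 54.3 and 45.4 in WT and at 86.7, 86.4 and 83.9 in CREBBP-KO. The folds were 3.84, 4.66 and 4.15 against 10.5, 11.1 and 10.4. The groups were far apart (shift 1.95, standard error 0.27, limma, adjusted p = 1.72e-05). This interval too reached a fold of 5 in CREBBP-KO alone, and without the fold filter its shift was 1.39.

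Deep in the gene an inner start of FOXP1 went the other way. Its interval chr3:71242931-71246320 stood at 90.8, 87.7 and 88.1 in WT and at 81.6, 82.8 and 78.4 in CREBBP-KO, with folds of 13.0, 11.2 and 11.9 against 8.46, 9.55 and 8.37. All 3 CREBBP-KO values were below all 3 WT values (shift -0.71, standard error 0.19, limma, adjusted p = 0.00576), with an adjusted p of 0.0576 by -log10 p. In WT the inner start thus carried the higher peak of this pair in every library, and in CREBBP-KO the canonical start did. The other 3 tested promoter intervals of FOXP1 had no call, with shifts of -0.21 to 0.34. Of its 6 promoter intervals, chr3:71304998-71306103 did not pass the fold filter and was not tested. Its mean percentile was 18.7 in WT and 61.9 in CREBBP-KO, and all 3 CREBBP-KO values stood above all 3 WT values.

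The direction of the calls also followed position in FOXP1, a division by distance that was chosen after the values were seen. Within 100 kb of the canonical start, 5 of 7 tested intervals were called higher and 0 lower, with a median shift of 0.82. Further in, 0 of 13 were called higher and 4 lower, with a median shift of -0.02. By percentiles without overlap, CREBBP-KO stood above WT at 2 of these 13 and below at 3. Untested intervals further in whose groups did not overlap all stood above, among them the promoter interval chr3:71304998-71306103. Among the tested intervals near the start, chr3:71535340-71538540 stood at 84.3, 79.7 and 82.4 in WT and 94.4, 95.4 and 94.2 in CREBBP-KO (shift 0.88, standard error 0.17, limma, adjusted p = 0.000502). Also within 100 kb, chr3:71495509-71497252 stood at 53.5, 54.2 and 58.5 in WT and 83.7, 77.0 and 74.5 in CREBBP-KO (shift 1.14, standard error 0.28, limma, adjusted p = 0.0031). Neither pair of groups overlapped. Of the 5 higher calls, this last one and that at the canonical start entered the test through CREBBP-KO alone, the group where they are high. Without the fold filter their shifts were 0.75 and 1.39.

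Beside the inner start, a pair of intervals further in was called lower without overlap. The interval chr3:71250003-71253347, with its summit 7040 bases before the nearest start, stood at 91.9, 92.1 and 93.8 in WT and at 90.7, 85.1 and 87.9 in CREBBP-KO (shift -0.51, standard error 0.17, limma, adjusted p = 0.0252), and lost its call under 4 of 14 alternatives. Near the 3′ end, chr3:70987087-70993549 stood at 93.3, 94.4 and 90.4 in WT and at 85.0, 90.1 and 85.1 in CREBBP-KO (shift -0.61, standard error 0.18, limma, adjusted p = 0.00988), a call lost without CREBBP-KO replicate 1 and by -log10 p (shift -0.30). In both the groups were close.

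**Figure D2:**
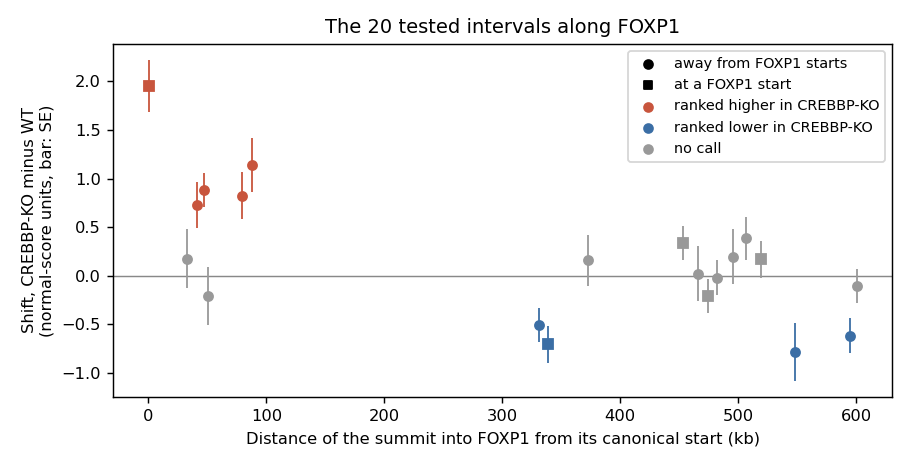
Shift of rank, CREBBP-KO minus WT, in normal-score units (vertical axis, bar: standard error of the fit) for the 20 tested intervals of FOXP1 by distance of the summit into the gene from its canonical start (horizontal axis, kb). Squares lie at a FOXP1 start; 5 of the 7 intervals within 100 kb are above 0 with a call, and the 4 downward calls lie beyond.

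The sequences at both intervals are shown because these intervals of 1 gene moved in opposite directions. Each is the 300 bases of hg38 before the outermost protein-coding start of its interval. They are read 5′ to 3′ on the strand of FOXP1, and neither overlaps an annotated exon. In the interval of the canonical start, the outermost start is another one, and the canonical start lies further into the gene. The names canonical and inner below therefore stand for the interval. Capitals mark CpG dinucleotides.
FOXP1 canonical start, chr3:71583979-71584278, minus strand: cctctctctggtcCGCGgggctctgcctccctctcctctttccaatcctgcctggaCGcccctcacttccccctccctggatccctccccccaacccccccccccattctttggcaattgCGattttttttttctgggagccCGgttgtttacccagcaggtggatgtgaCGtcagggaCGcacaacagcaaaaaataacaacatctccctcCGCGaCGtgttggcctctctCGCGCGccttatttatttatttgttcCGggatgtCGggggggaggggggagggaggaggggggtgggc
FOXP1 inner start, chr3:71245182-71245481, minus strand: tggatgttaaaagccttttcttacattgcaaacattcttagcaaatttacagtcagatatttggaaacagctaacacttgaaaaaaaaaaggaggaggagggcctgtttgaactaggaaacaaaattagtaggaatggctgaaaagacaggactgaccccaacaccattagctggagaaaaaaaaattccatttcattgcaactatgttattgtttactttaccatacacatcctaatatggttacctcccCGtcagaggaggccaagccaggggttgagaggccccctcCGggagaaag
The canonical window held 15 CpG dinucleotides and 60.0% G and C, and the inner window 2 and 41.0%. The median over the windows before 78567 protein-coding starts was 17 CpG and 60.0% G and C. Both windows held the forkhead core TGTTTAC, searched on both strands, which 2.85% of those windows hold. The canonical window also held the cAMP response element TGACGTCA, found in 2.06% of them, and the inner window the TEAD core CATTCC, found in 13.0%. Neither held the AP-1 site TGANTCA (6.09% of windows). A match of letters is not a bound site.

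The interval with the smallest adjusted p of all members lay at FOXD1. It was chr5:73436587-73438972, between protein-coding genes and 11.0 kb downstream of the FOXD1 start. Noncoding transcripts were not considered in naming intervals distal or between genes. It stood at 39.7, 6.69 and 9.66 in WT and at 82.6, 80.1 and 78.1 in CREBBP-KO, with folds of 3.74, 2.57 and 2.78 against 8.76, 8.58 and 8.31. In WT replicates 2 and 3 the peak was under percentile 10 of its list and in WT replicate 1 higher, and all 3 CREBBP-KO peaks stood far above (shift 2.47, standard error 0.31, limma, adjusted p = 8.73e-06). The interval passed the fold filter through CREBBP-KO alone, and without that filter its shift was 2.10.

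The 300 bases around the summits of this interval and of the FOXK2 intron are shown as the leading distal intervals of either direction, on the plus strand of hg38, again with CpG in capitals.
FOXD1 downstream, chr5:73437641-73437940, plus strand: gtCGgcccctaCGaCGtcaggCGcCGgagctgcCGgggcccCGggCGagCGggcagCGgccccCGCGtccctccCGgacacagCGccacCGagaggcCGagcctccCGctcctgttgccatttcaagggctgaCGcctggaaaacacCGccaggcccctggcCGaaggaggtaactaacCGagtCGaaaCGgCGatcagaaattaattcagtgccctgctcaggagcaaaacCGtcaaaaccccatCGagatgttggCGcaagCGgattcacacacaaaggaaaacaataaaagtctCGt
FOXK2 intron, chr17:82536528-82536827, plus strand: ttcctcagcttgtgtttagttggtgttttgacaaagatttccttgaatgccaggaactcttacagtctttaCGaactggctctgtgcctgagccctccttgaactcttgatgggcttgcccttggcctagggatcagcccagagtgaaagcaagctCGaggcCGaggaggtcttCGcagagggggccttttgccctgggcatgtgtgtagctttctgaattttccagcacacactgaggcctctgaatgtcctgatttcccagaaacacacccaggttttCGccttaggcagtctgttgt
The FOXD1 window held 29 CpG dinucleotides and the FOXK2 window 5, beside a median of 4 over the windows of all tested intervals. Neither held any of the 4 motifs. Over the members, the 25 intervals called higher had a median of 15 CpG and the 9 called lower of 5, and the tested promoter intervals of 24.5. Whether CpG content has a part in the shifts was not tested.

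Across the windows as a whole, 131 intervals had a peak in all 6 lists and 98 of these were tested, that is, had a fold of at least 5 in all 3 libraries of at least one genotype. At an adjusted p under 0.05 (limma, Benjamini-Hochberg over 34864 intervals), 25 were called higher in CREBBP-KO (25.5%) and 9 lower (9.18%), where the whole set gave 18.6% and 18.7%. The median shift was 0.17 against 0.02. Intervals near each other in 1 gene are not independent, and 20 of the 98 lay in FOXP1. Without FOXP1, 20 of 78 were called higher and 5 lower. Leaving out CREBBP-KO replicate 1 gave 14 higher calls (13.9% of the members tested, against 14.1% of all tested intervals), so that without this library the share of the members was no longer above that of the genome. Leaving out CREBBP-KO replicate 3 gave 5 lower calls (4.95%, against 15.1%). Of the 25 higher calls, 8 had entered through the folds of CREBBP-KO alone, and 1 of the 9 lower calls through those of WT alone. With no fold filter 26 of 131 were called higher (19.8%, against 12.5%) and 6 lower (4.58%, against 12.1%).

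The intervals were then divided by class. At their own promoters 7 of 30 tested intervals were called higher (23.3%) and 1 lower (3.33%), near the 26.7% and 8.40% of all protein-coding genes with a tested promoter interval. The shares of the genome count genes, each by its tested promoter interval of the highest mean fold, and those of the members count intervals. Away from protein-coding promoters 14 of 55 were called higher (25.5%) and 6 lower (10.9%), against 14.9% and 23.6% of all such intervals. A further 4 of 13 at promoters of other genes were called higher and 2 lower. The 55 showed more calls upward than downward and the genome the reverse, a difference that was not tested.

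Without regard to height, all 3 CREBBP-KO percentiles stood above all 3 WT percentiles at 52 of the 131 intervals (39.7%) and below at 8 (6.11%). In the genome these shares were 28.9% and 12.1%. Percentiles rise with the length of a list, whereas the fitted ranks compare the same intervals in every library.

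Several called intervals in forkhead windows lay at promoters of other genes and are given as such. The promoter of UNC119, which carries lipid-modified proteins, in the FOXN1 window stood at 28.1, 62.4 and 61.2 in WT and 83.3, 85.7 and 81.1 in CREBBP-KO (shift 1.55, standard error 0.31, limma, adjusted p = 0.000689). The promoter of TULP3, which brings receptors to cilia, beside FOXM1 stood at 77.6, 76.3 and 82.0 in WT and 96.6, 90.0 and 90.5 in CREBBP-KO (shift 0.90, standard error 0.21, limma, adjusted p = 0.00198). At PPP1R16A beside FOXH1 the values were 18.4, 62.2 and 45.3 in WT and 78.3, 71.9 and 77.8 in CREBBP-KO (shift 1.35, standard error 0.33, limma, adjusted p = 0.00347). In all 3 the groups did not overlap, though the WT libraries of UNC119 and PPP1R16A lay far apart. The intervals of UNC119 and PPP1R16A entered the test through the folds of CREBBP-KO alone. Without the fold filter their shifts were 1.13 and 1.06.

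Downward, the promoter of PPP1R3F, a phosphatase subunit of glycogen metabolism, beside FOXP3 stood at 98.0, 99.4 and 98.8 in WT and 93.6, 95.7 and 95.1 in CREBBP-KO (shift -0.84, standard error 0.17, limma, adjusted p = 0.000697). That of IRF2BP1 beside FOXA3 stood at 90.6, 91.0 and 92.0 in WT and 85.5, 89.5 and 86.5 in CREBBP-KO, with an adjusted p close to the threshold (shift -0.44, standard error 0.17, limma, adjusted p = 0.0498). This call was lost under 10 of 14 alternatives. FOXH1, FOXN1 and FOXP3 themselves had no promoter peak.

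**Figure D3:**
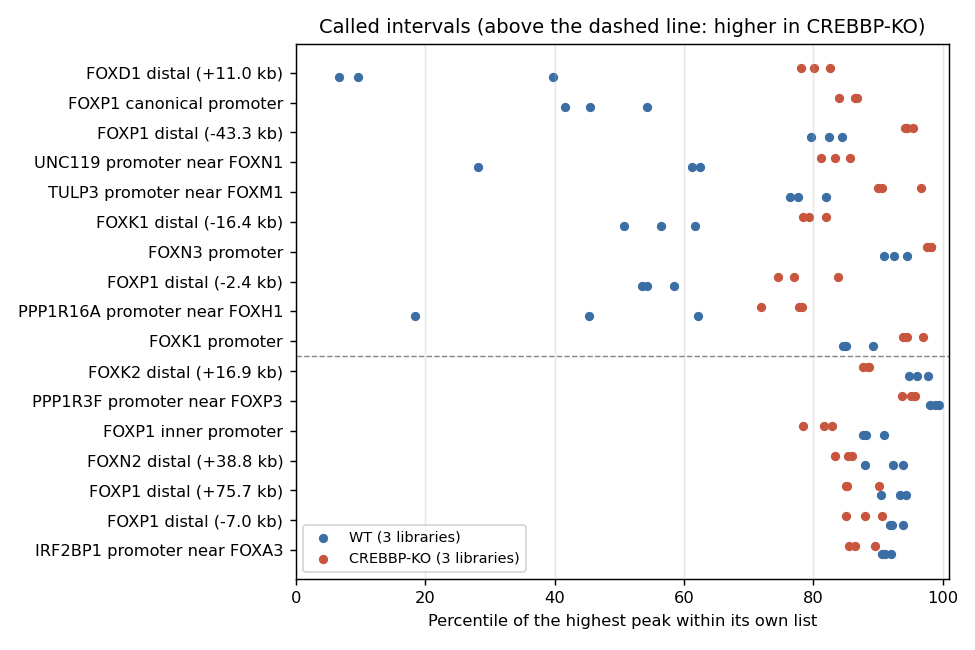
Percentile within its own list (horizontal axis) of the 10 forkhead-window intervals with the smallest adjusted p among those called higher in CREBBP-KO (above the dashed line) and of the 7 called lower, all without overlap between genotypes. Dots are single libraries; kb values are distances from the nearest start of the gene, positive in the direction of transcription, and the FOXD1 distal interval runs from 6.69 in WT to 82.6 in CREBBP-KO.

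In all 3 CREBBP-KO lists and in no WT list, 15 intervals had a peak, of 161 with a peak in all 3 CREBBP-KO lists (9.32%, against 5.97% in the genome). The reverse held for 1 of 144 (0.694%, against 2.61%), an interval 18.5 kb before the start of FOXF1. All 16 lay away from protein-coding promoters, and 5 of the 15 lay in the FOXP1 window. FOXC1, FOXK2 and FOXO3 had 2 each and FOXA1, FOXJ3, FOXL1 and FOXS1 had 1 each. These were low peaks: a fold of 5 was passed in 1 library at 1 of them, chr6:1613410-1614339 at the 3′ end of FOXC1, with folds of 7.40, 4.98 and 4.99. The counts turned on single libraries: without CREBBP-KO replicate 3 they were 25 and 4, and 5 WT intervals were found without WT replicate 2 or without CREBBP-KO replicate 2. With lists of equal length 9 intervals of CREBBP-KO were left.

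The windows held 223, 238 and 210 peaks in WT and 288, 268 and 243 in CREBBP-KO, or 223.7 ± 14.0 and 266.3 ± 22.5 (SD, n = 3), without overlap (two-sided exact permutation test, p = 0.1). As a share of each list this was 0.246% ± 0.00917 in WT and 0.253% ± 0.00653 in CREBBP-KO (SD, n = 3; exact permutation test, p = 0.3). The covered length was 504.0 ± 13.7 kb in WT and 520.6 ± 26.5 kb in CREBBP-KO (SD, n = 3; exact permutation test, p = 0.4). The larger number of peaks thus went with the longer lists, and the share did not separate the genotypes. With lists of equal length the difference in number was 10 peaks in place of 42.7.

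The genes that act on forkhead factors, or are commonly cited as their targets, were read at their promoters. Of all protein-coding genes with a tested promoter interval, 26.7% were called higher, with a median shift of 0.21. Of 16 genes that regulate FOXO factors, all with a promoter peak in all 6 lists, 3 were called higher and 0 lower (median shift 0.16). Among the higher ones were SKP2, which marks FOXO1 for degradation, by 0.75, and the deacetylase SIRT1 by 0.46. The other 13, among them AKT1, AKT2 and PIK3CA, had no call.

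Of 16 commonly cited FOXO targets 14 were tested, 6 were called higher and 1 lower (median shift 0.40). Higher were the stress gene GADD45A by 1.22, SESN1 by 1.14, the muscle ubiquitin ligase FBXO32 by 1.11, the cell-cycle inhibitor CDKN1B by 0.76, KLF2 by 0.69 and IRS2 by 0.42. At FBXO32 the promoter peak stood at 53.6, 63.5 and 55.7 in WT, in replicates 1 and 3 under the percentile of a fold of 5. By these peaks FBXO32 met the fold filter through CREBBP-KO alone. The repressor BCL6 was called lower (shift -0.70), with its peak at 99.9, 99.8 and 99.9 in WT and 99.7, 98.6 and 99.1 in CREBBP-KO. These targets were called in both directions, as were those of FOXM1.

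Of 10 FOXM1 targets, 6 were called higher and 1 lower (median shift 0.64). Higher were the mitotic genes PLK1 by 1.31, BIRC5 by 0.97, CCNB1 by 0.80, CENPA by 0.70 and AURKB by 0.59, and SKP2, which stands in both lists. At PLK1 the promoter peak stood at 70.4, 54.6 and 65.7 in WT, in replicate 2 under the percentile of a fold of 5. By these peaks PLK1 too met the fold filter through CREBBP-KO alone. CKS1B was called lower (shift -0.76). Of 8 cofactor genes 4 were tested, of which 2 were called higher, among them the corepressor TLE1 (shift 0.51), and 0 lower (median shift 0.38), while 3 genes, GATA4 and HNF4A among them, had no promoter peak in any list. The promoter of GATA6, an endoderm factor, had a peak in the 3 CREBBP-KO lists only, at 65.8, 75.8 and 68.3. The lists were chosen with earlier results of these data known, and no test compares them with other genes.

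The 4 motifs were counted in 300 bases around the highest summit of each tested interval. The forkhead core TGTTTAC was found in 8 of 98 member windows (8.16%), against 4.37% of all tested windows, and AP-1 TGANTCA in 10 (10.2%, against 8.80%, an order that turned in windows of 200 bases). CATTCC was found in 13 (13.3%, against 14.6%) and TGACGTCA in 0 (against 0.198%). Of the 25 intervals called higher 1 held the forkhead core, and of the 9 called lower 1. These counts are a description of the windows.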

How the data were processed

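H3K27ac ChIP-seq peak lists of 3 WT and 3 CREBBP-KO libraries of HCEC-1CT were used. Per the labels, the authors aligned reads with BWA to hg38; the methods name the nf-core ChIP-seq pipeline and MACS2 narrow peaks, called per library. The methods describe this pipeline on all reads and again on downsampled reads. From which run the deposited lists come, and which input was the control, is not given in the sources used here. The deposited fold is a linear ratio over local background. Significance was deposited on a scale of -log10 p and of -log10 q, and no -log10 q was under 1.3. On 24 of 24 chromosomes every peak was inside the hg38 length.

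Overlapping or touching peaks were merged over the 6 lists. An interval takes the highest fold in each library. Intervals with a peak in all 6 lists and a fold of at least 5 in all 3 libraries of a genotype were ranked within each library, and the normal scores were fitted with limma 3.58.1 in R 4.3.3 (eBayes with a trend, CREBBP-KO minus WT, Benjamini-Hochberg over all of them). For single values a two-sided exact permutation test was used. Tables were handled in Python 3.11.15 with pandas 2.3.3, scipy 1.17.1 and numpy 2.4.6. The code was tested on simulated data. Depth is unknown, so no counting interval was computed.

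Named were the 15 genes with the highest mean promoter percentile, the 10 intervals with the smallest adjusted p in each direction among those past 0.05 without overlap, and the one-genotype interval with a fold of 5 in a library. Other genes and intervals were named after their values were seen. The members, lists and rules were chosen with earlier results of these data known. Alternatives to the fold filter, ranking, model, list length, windows and promoter distance were run, and fits were repeated without each library. Some items are not reported here. Sequences are those of hg38 and starts those of GENCODE release 44.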

Additional observations from a re-analysis of the deposited data

How the results depend on the processing

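Of 229 refits of the named intervals, 210 kept direction and call, 19 kept direction without the call, and 0 reversed. Higher calls numbered 25, and 10 with a fold of at least 10 (21.7% of those tested, against 22.4% of all), 13 when ranked by -log10 p (13.3% against 12.4%), and 14 to 26 with a library left out. Lower calls numbered 9, and 15 in windows of 50 kb, 5 without FOXP1 (chosen after seeing the data), and 5 to 9 with a library left out. One-genotype intervals of CREBBP-KO and WT numbered 15 and 1, and 6 and 0 when a -log10 q of 5 was required, 0 and 0 when a fold of 5 was required, and 9 for CREBBP-KO with lists of equal length. WT had 0 in windows of 10 kb. Leaving out a library gave 16 to 25 for CREBBP-KO and 1 to 5 for WT. Promoters lower in CREBBP-KO without overlap numbered 0, and 1 with lists of equal length and 0 to 2 with a library left out. The difference in peaks of the windows, 42.7, became 17.7 with the -log10 q limit of 5, 13.3 with the fold limit of 5 and 10 with lists of equal length. Silent genes numbered 17, and 10 in windows of 50 kb or without FOXL2NB, FOXO3B and the FOXD4-like genes (chosen after seeing the data). AP-1 was found in 4.08% of 200-base windows of the members, below the 4.99% of all tested intervals, whereas at 300 bases the members were above. Where no construction of the alternative shows it, the cause was not tested. The deviations of same-numbered WT and CREBBP-KO libraries had r of 0.0108, 0.0144 and 0.0284, and those of differently numbered ones -0.0248 to 0.0118. These values cannot decide whether the numbers pair the samples. The fit with a replicate block gave 24 higher and 8 lower calls. The peak lists give no depth, so an absent peak may be one below the caller's threshold.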
